A study of Rattus norvegicus with 18 samples.

Results

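The small leucine-rich proteoglycans described here are 7 genes of the extracellular matrix, Dcn (decorin), Bgn (biglycan), Prelp (prolargin), Fmod (fibromodulin), Lum (lumican), Ogn (osteoglycin) and Aspn (asporin), taken by name from a table of 30957 genes. All 7 symbols were present, and 5 of them had counts. The table comes from poly(A) RNA sequencing of renal parenchyma of rats with unilateral ureteral obstruction, an injury model in which the left ureter is tied with silk so that the kidney behind it scars. There were 5 libraries after 1 day of ligation, 5 after 3 days, 5 after 7 days and 3 labelled 14 days. Every library is labelled with a ligated ureter; a sham group named in the design was not analysed here, so durations are compared only with each other. The labels give no strain, sex or age, carry a single batch label for all libraries and do not say whether every library came from its own animal. The p-values therefore reflect how far libraries of a group scattered, and that scatter may be technical.

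Small leucine-rich proteoglycans are secreted proteins with a curved core of leucine-rich repeats that sit on collagen fibrils and govern how the fibrils assemble and how wide they grow. Decorin and biglycan carry chondroitin or dermatan sulfate chains, lumican and fibromodulin carry keratan sulfate, and prolargin has a basic tail that binds heparan sulfate. Decorin can hold transforming growth factor beta in the matrix and binds several receptor tyrosine kinases, whereas soluble biglycan can activate Toll-like receptors on macrophages. In the kidney these proteins belong to the interstitium, the adventitia of vessels and the glomerulus, and decorin and biglycan are known to accumulate in scarring kidneys.

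The libraries held 5488540 to 12049915 counts, and mitochondrial transcripts took 7.11 to 13.57% of counts at 1, 3 and 7 days, against 14.4 to 27.36% in the libraries labelled 14 days. A few libraries stood apart in cell type markers. Replicates 1 and 3 labelled 14 days had summed levels of 7 urothelium markers of 872 and 932 FPKM, and replicate 5 of day 1 had 366 FPKM. Replicate 1 of day 3 had 88 FPKM, and all other libraries had 1.31 to 21.6 FPKM. The summed level of 8 adipocyte markers was 238 and 2407 FPKM in replicates 1 and 3 labelled 14 days and 145 FPKM in replicate 5 of day 1, against 10.5 to 44.8 FPKM elsewhere. Replicate 2 labelled 14 days differed in the other direction: its summed level of 10 proximal tubule markers was 4422 FPKM, the highest of the 18 libraries. In it 6 of 14 fibroblast markers were at 0, against 1 to 4 in the other libraries, with Mfap4 at 0 in all. Its fibroblast markers summed to 126 FPKM, within the 99.5 to 157 FPKM of day 1. The libraries labelled 14 days therefore differed among themselves in these markers, and their label is given as such throughout. Fibroblast markers, 14 genes found, summed to 127 ± 22.8 FPKM at 1 day, to 220 ± 59.9 FPKM at 3 days and to 417 ± 77.8 FPKM at 7 days (SD over 5 libraries each).

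**Figure D1:**
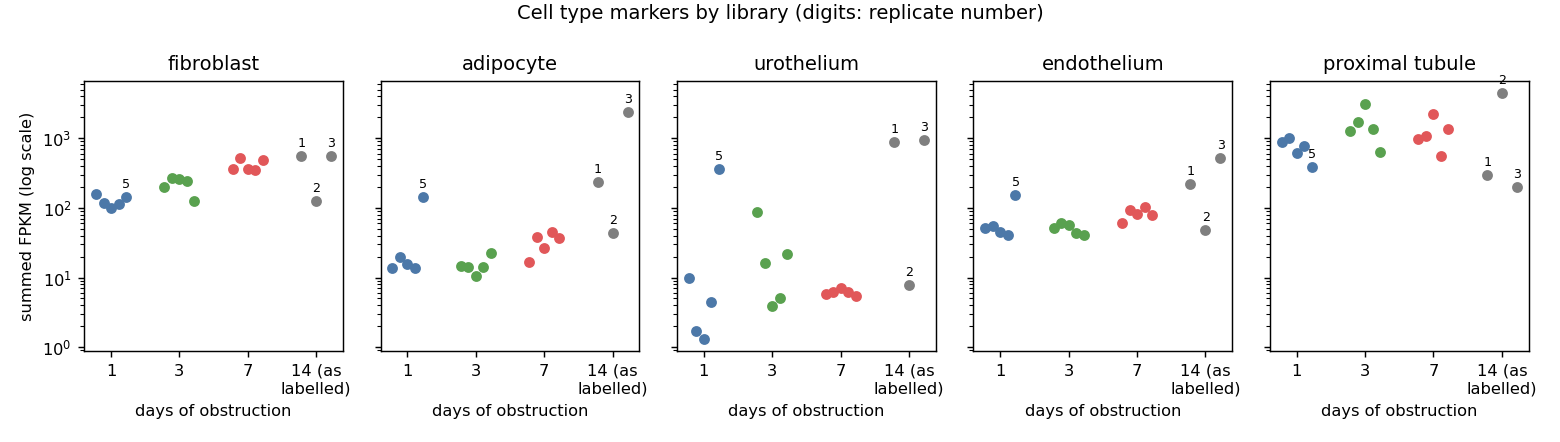
Summed FPKM (log scale) of the markers of 5 cell types in each library, by labelled days of obstruction; each point is 1 library and digits give the replicate number of the libraries that stood apart and of the third labelled 14 days. Replicate 5 of day 1 and replicates 1 and 3 labelled 14 days lie above the other libraries in adipocyte, urothelium and endothelium markers, and replicate 2 labelled 14 days has the highest proximal tubule sum, 4422 FPKM.

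Levels are given as FPKM, counts per length of transcript and per library total, so that genes can be set beside each other. Through the first 7 days the order of the transcripts was the same in nearly every library. Bgn was above Dcn, and Dcn above Prelp, in 15 of 15 libraries. Prelp was above both Fmod and Lum in 15 of 15. Fmod lay above Lum in 13 of 15, and the ranges of that last pair overlapped at each duration. Together the members summed to 171 ± 39.6 FPKM at 1 day, 199 ± 29 FPKM at 3 days, 392 ± 91.5 FPKM at 7 days and 260 ± 200 FPKM in the libraries labelled 14 days (SD over 5, 5, 5 and 3 libraries). Biglycan and decorin transcripts made up nearly all of this sum at 1, 3 and 7 days. In bulk tissue, fewer cells of a type and less RNA per cell cannot be told apart, and this holds for every level below.

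Biglycan was the most abundant member through 7 days. Bgn (ENSRNOG00000055962, chromosome X, 157319046 to 157331204, minus strand; coordinates are those of the deposited table, which names no genome build) had 119, 86.5, 153, 83.8 and 120 FPKM at 1 day. Its levels were 167, 111, 131, 144 and 160 FPKM at 3 days, 174, 252, 222, 230 and 316 FPKM at 7 days, and 99.2, 53.7 and 103 FPKM in the libraries labelled 14 days. All 5 libraries of day 7 lay above all libraries of the other durations, although the lowest of day 7 (174) and the highest of day 3 (167) were close.

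Decorin, the best studied member of the family, is encoded by Dcn (ENSRNOG00000004554, chromosome 7, 38742051 to 38782323, plus strand). Its levels were 63.3, 29.5, 43, 47.8 and 73.6 FPKM at 1 day and 67.1, 44.1, 46.3, 50.6 and 38.3 FPKM at 3 days. At 7 days they were 91.9, 150, 149, 125 and 198 FPKM, and in the libraries labelled 14 days 93.6, 16.6 and 173 FPKM. The libraries of day 7 were all above those of days 1 and 3, which overlapped each other, while the libraries labelled 14 days ran from below the lowest of day 1 to within the range of day 7.

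Prolargin, which anchors basement membranes to connective tissue, was far lower. Prelp (ENSRNOG00000003120, chromosome 13, 50749514 to 50761355, minus strand) had 4.45, 2.15, 3.13, 3.45 and 11.6 FPKM at 1 day, 6.45, 4.63, 4.08, 5.23 and 4.71 FPKM at 3 days and 4.65, 8.9, 6.82, 9.72 and 10 FPKM at 7 days. In the libraries labelled 14 days it had 35.4, 2.55 and 167 FPKM. The high value of day 1 was that of replicate 5, and the high values labelled 14 days were those of replicates 1 and 3, the same libraries that were high in adipocyte and urothelium markers.

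Fibromodulin and lumican, which share a binding region on type I collagen, were near the lower end of what these depths measure. Fmod (ENSRNOG00000003183, chromosome 13, 50873605 to 50885563, plus strand) had 3.36, 1.69, 1.13, 0.925 and 0.44 FPKM at 1 day, 1.1, 3.96, 1.88, 1.43 and 1.49 FPKM at 3 days, 1.39, 2.01, 2.2, 2.23 and 1.67 FPKM at 7 days and 3.98, 1 and 5.56 FPKM in the libraries labelled 14 days. Lum (ENSRNOG00000004610, chromosome 7, 38819771 to 38826862, plus strand) had 2.25, 0.848, 0.317, 0.633 and 1.16 FPKM at 1 day, 0.741, 0.36, 1.1, 0.699 and 0.192 FPKM at 3 days and 0.814, 2.1, 0.498, 1.85 and 0.673 FPKM at 7 days. The durations overlapped for both genes. Behind these Lum levels stood only 3 to 38 counts a library. In the libraries labelled 14 days Lum had 3.12, 0 and 22.4 FPKM, from 40, 0 and 291 counts. Replicate 2 had 0 of 5623716 counts, for which the 95% Poisson interval reaches 3.69 counts, a limit that covers counting error only.

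**Figure D2:**
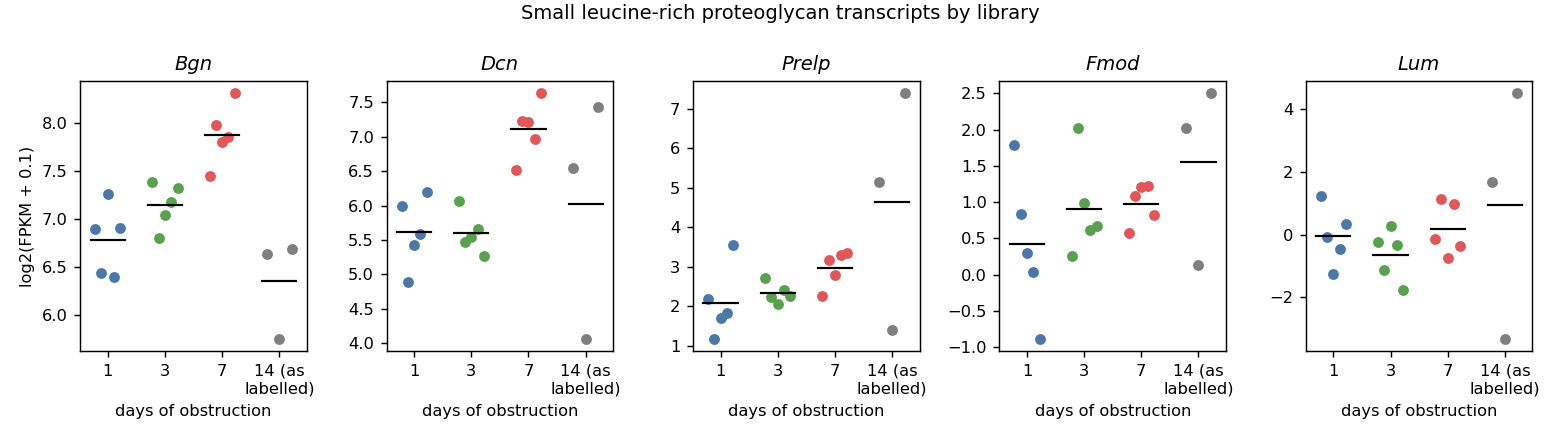
Level of the 5 members with counts, as log2(FPKM + 0.1), by labelled days of obstruction; each point is 1 library and bars are means of the plotted log2 values (5 libraries each at 1, 3 and 7 days, 3 labelled 14 days). Each panel has its own vertical range. All day 7 libraries lie above days 1 and 3 for Bgn and Dcn, and the libraries labelled 14 days spread widely for Prelp (2.55 to 167 FPKM) and Lum (0 to 22.4 FPKM).

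Osteoglycin and asporin could not be followed. Ogn and Aspn are each listed on a pair of rows of chromosome 17: Ogn at 14607442 to 14627937 and at 15449301 to 15467279, and Aspn at 14656009 to 14679409 and at 15495801 to 15511972. All 4 rows are listed at 0 in all 18 libraries. Their neighbours Omd (osteomodulin, another member of the family) and Nol8, a nucleolar protein gene looked up after its value was seen, are also listed at 0 throughout. Of the 494 symbols with several rows in the table, 155 (31.4%) are at 0 in every library, against 23% of symbols with a single row. No level or change is given for Ogn and Aspn. Among the other neighbours, Kera (keratocan) and Epyc (epiphycan), which lie beside Dcn and Lum on chromosome 7, had 0 counts in all libraries, and Optc (opticin), beside Prelp on chromosome 13, had 1 to 22 counts.

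Between 1 and 3 days none of the 5 measured members passed the test. Of all 13991 genes tested, 10.5% were called at this interval (edgeR quasi-likelihood test, Benjamini-Hochberg adjusted p under 0.05), 5.4% higher and 5.13% lower, and 2.27% with all 18 libraries in the fit, which called no member either. No member had groups without overlap, as 8.26% of genes did. Bgn averaged 142 ± 22.6 FPKM at 3 days and 112 ± 28.3 FPKM at 1 day, and its log2 fold change was 0.32 ± 0.18 (SE; adjusted p = 0.249). Dcn averaged 49.3 ± 10.9 FPKM at 3 days and 51.4 ± 17.3 FPKM at 1 day (log2 fold change -0.08 ± 0.23, adjusted p = 0.854). The log2 fold changes of Fmod (0.36, adjusted p = 0.643), Lum (-0.76, adjusted p = 0.397) and Prelp (adjusted p = 0.995) had standard errors of 0.45, 0.55 and 0.35, in that order.

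Decorin and biglycan transcripts rose between 3 and 7 days. Dcn averaged 143 ± 38.9 FPKM at 7 days and 49.3 ± 10.9 FPKM at 3 days, with a log2 fold change of 1.47 ± 0.23 (SE; adjusted p = 0.00333 in edgeR). Bgn averaged 239 ± 51.7 FPKM at 7 days and 142 ± 22.6 FPKM at 3 days, a log2 fold change of 0.68 ± 0.18 (adjusted p = 0.0324). These were 2 of 5 members tested, beside 7.99% of all genes tested, 4.67% called higher and 3.32% lower. Both also had groups without overlap, which 8.49% of all genes tested showed. Prelp (0.61 ± 0.35, adjusted p = 0.282), Lum (0.84 ± 0.55, adjusted p = 0.354) and Fmod (-0.12 ± 0.45, adjusted p = 0.894) did not pass. Summed fibroblast markers were higher too, with 366, 518, 367, 351 and 485 FPKM at 7 days, against 200, 269, 260, 246 and 124 FPKM at 3 days. At 3 versus 1 day, where no member was called, 3 of 11 fibroblast markers tested were called higher, and 0 with all 18 libraries in the fit. The part of these markers in the result was not tested. With the libraries labelled 14 days added to the fit, which then called 1.05% of genes in place of 7.99%, neither passed, at the same fold changes (adjusted p = 0.0632 for Dcn and 0.0729 for Bgn). The Bgn call was also lost, with adjusted p of 0.0511 to 0.0913, without any 1 of replicates 1 to 4 of day 3 or replicates 2, 4 and 5 of day 7, whereas that of Dcn held in each such fit (0.00167 to 0.0172).

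Over the whole interval, 7 against 1 day, the same pair stood higher. The log2 fold change was 1.39 ± 0.23 for Dcn (SE; adjusted p = 0.000413 in edgeR) and 1.00 ± 0.18 for Bgn (adjusted p = 0.000694), and for both the libraries of day 7 were all above those of day 1. Both calls held with all 18 libraries in the fit, which called 25.6% of genes (adjusted p = 0.0114 for Dcn and 0.00119 for Bgn) and when any 1 library was left out. This interval moved many genes: 38.2% of those tested were called, 18% higher, and 21.7% had groups without overlap. The 2 of 5 members called are near the share called in either direction. Both were higher and without overlap, where the shares of all genes were smaller, but 5 members are few for such a comparison. Lum (0.08 ± 0.53, adjusted p = 0.92) and Fmod (0.25 ± 0.46, adjusted p = 0.7) did not pass.

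Prelp turned on a single library. At 7 against 1 day its log2 fold change was 0.60 ± 0.35 (SE, edgeR adjusted p = 0.184), and without replicate 5 of day 1 it was 1.17 (adjusted p = 0.00118). That library had 11.6 FPKM of Prelp, against 2.15 to 4.45 FPKM in the other libraries of day 1. Its endothelium markers summed to 154 FPKM, against 40.5 to 54.5 FPKM in the others of that day, beside its high adipocyte and urothelium markers. Mesothelium (127 FPKM), leukocyte (99.2 FPKM) and smooth muscle markers (88.3 FPKM) were also highest of day 1 in it, and proximal tubule markers (385 FPKM) lowest. The part of these markers in the Prelp level was not tested. Leaving out the library with the highest Prelp level of day 1 favours a rise, and with all libraries 38.2% of genes were called at this interval. The lowest library of day 7 had 4.65 FPKM of Prelp, close to the 4.45 FPKM of replicate 1 of day 1.

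**Figure D3:**
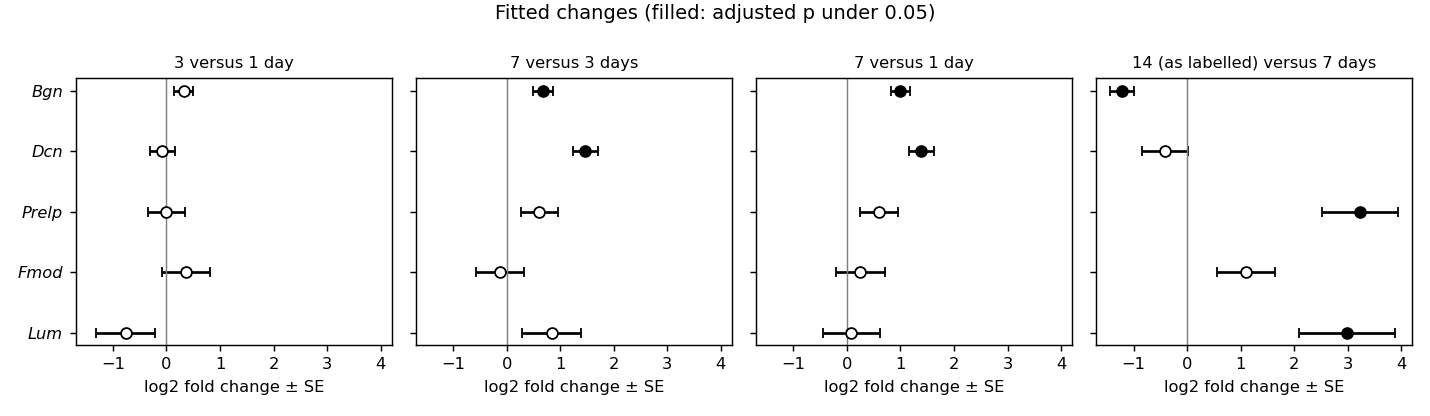
Log2 fold change with standard error of the 5 members with counts in 4 comparisons of days of obstruction, later over earlier; filled points have an adjusted p under 0.05. Dcn and Bgn are filled at 7 versus 3 and 7 versus 1 day, and Bgn, Prelp and Lum at 14 (as labelled) versus 7 days, where error bars are wider.

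Decorin gained on biglycan and prolargin within libraries between 3 and 7 days. The ratio of 2 levels in a library does not depend on how libraries are scaled. The tests used FPKM + 0.1, so for low levels such as those of Lum and Fmod this holds only in part. Biglycan exceeded decorin 1.7 ± 0.166 times at 7 days and 2.97 ± 0.699 times at 3 days (SD of the FPKM ratio over 5 libraries each). The library ratios were 1.89, 1.68, 1.49, 1.84 and 1.6 at 7 days, against 2.48, 2.51, 2.83, 2.84 and 4.18 at 3 days, with no overlap. The difference in log2 ratio was -0.78 ± 0.15 (SE; exact two-sided permutation test, p = 0.00794, the smallest that 5 against 5 can give; Benjamini-Hochberg adjusted p = 0.0476 over 12 tests). Prelp fell relative to Dcn in the same way, at 0.0568 ± 0.0127 of the Dcn level at 7 days and 0.103 ± 0.013 at 3 days, a difference in log2 ratio of -0.88 ± 0.15 (exact permutation p = 0.00794, adjusted p = 0.0476). Neither adjusted p is far from 0.05. With 1 library of day 3, or replicate 1, 2, 3 or 5 of day 7, left out neither passed (adjusted p = 0.0635 to 0.0952). With 4 against 5 libraries the exact permutation p cannot fall below 0.0159, so these refits cannot tell whether the result rests on 1 library. Without any 1 library the log2 ratio differed by -0.84 to -0.65 for Bgn and by -1.0 to -0.81 for Prelp. Both passed without replicate 4 of day 7 (adjusted p = 0.0476 each), where 4 of the 12 ratios passed, which makes the adjustment milder. They also passed without any 1 library of day 1, but those libraries are no part of this comparison.

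With all libraries and a pseudocount of 0.1 the remaining ratios to Dcn did not pass. For Fmod the difference in log2 ratio at 7 against 3 days was -1.44 ± 0.42 (exact permutation p = 0.0159, adjusted p = 0.0635) and for Lum -0.70 ± 0.53 (adjusted p = 0.286). At 7 against 1 day the differences were -0.40 ± 0.23 for Bgn, -0.61 ± 0.26 for Prelp, -0.93 ± 0.58 for Fmod and -1.28 ± 0.57 for Lum (adjusted p = 0.25, 0.119, 0.25 and 0.152, exact permutation tests). Several of these depended on the setting. With a pseudocount of 1, Lum passed at 7 against 3 days (-1.10, adjusted p = 0.019) and at 7 against 1 day (-1.37, adjusted p = 0.019), as did Fmod at 7 against 3 days (-1.47, adjusted p = 0.019) and Prelp at 7 against 1 day (-0.74, adjusted p = 0.0317). Without replicate 5 of day 1, Fmod passed at 7 against 3 days (-1.44) and at 7 against 1 day (-1.40), and Prelp was higher relative to Dcn at 3 than at 1 day (0.49; adjusted p = 0.0381 each). Without replicate 4 of day 7, Fmod at 7 against 3 days (-1.54) and Prelp at 7 against 1 day (-0.73) passed (adjusted p = 0.0476 each). The decorin share of the summed level of the family was 29.9 ± 6.49% at 1 day, 24.7 ± 3.54% at 3 days and 36.1 ± 2.35% at 7 days. Biglycan held 65.8 ± 7.76% at 1 day, 71.4 ± 4.09% at 3 days and 61 ± 2.09% at 7 days (SD over 5 libraries each). Of these durations day 1 was the most varied, with biglycan shares of 58 to 76.2%.

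**Figure D4:**
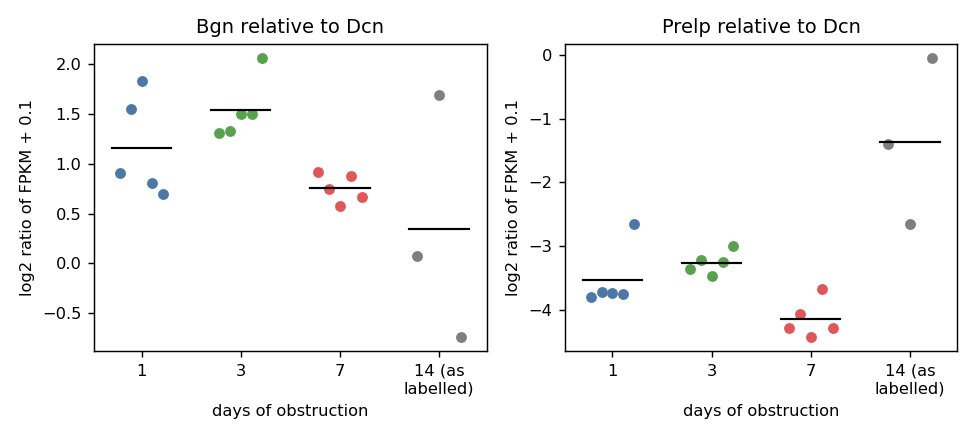
Within-library log2 ratio of Bgn (left) and Prelp (right) to Dcn, computed on FPKM + 0.1, by labelled days of obstruction; each point is 1 library and bars are means. The 5 libraries of day 7 lie below all 5 of day 3 in both panels, and the 3 labelled 14 days spread from -0.74 to 1.69 for Bgn.

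The libraries labelled 14 days differed from those of 7 days in 3 of 5 members tested, beside 38.3% of 14511 genes. Bgn was lower, at 85.5 ± 27.6 FPKM (SD, n = 3) in the libraries labelled 14 days and 239 ± 51.7 FPKM at 7 days (n = 5), with a log2 fold change of -1.21 ± 0.22 (SE; adjusted p = 0.000664 in edgeR), and without overlap, as for 29.5% of genes. It stayed lower without any 1 library (log2 fold change -1.31 to -1.05). Dcn averaged 94.4 ± 78.2 FPKM in the libraries labelled 14 days and 143 ± 38.9 FPKM at 7 days (log2 fold change -0.41 ± 0.43, adjusted p = 0.474), and without replicate 2 its log2 fold change was 0.07. So the pair that rose together at 7 days had different values here: in replicate 3 the biglycan level was 0.598 of the decorin level, and it was 1.06 in replicate 1 and 3.23 in replicate 2.

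Prelp and Lum were higher in the libraries labelled 14 days, and this rested on replicate 3. The log2 fold change against 7 days was 3.23 ± 0.71 for Prelp (SE; adjusted p = 0.00248 in edgeR) and 2.99 ± 0.90 for Lum (adjusted p = 0.0159). Without replicate 3 labelled 14 days the values were 1.51 for Prelp (adjusted p = 0.0643) and 0.71 for Lum (adjusted p = 0.568). With limma on log2(FPKM + 1) neither passed with all 3 libraries (adjusted p = 0.0988 for Prelp and 0.172 for Lum). In that library prolargin made up 35.4% of the summed level of the family, against 15.1% in replicate 1, 3.45% in replicate 2 and 1.7 to 2.64% at 7 days. Adipocyte markers summed to 2407 FPKM in replicate 3, 238 FPKM in replicate 1 and 43.3 FPKM in replicate 2. Prelp and Lum had that order of libraries, but so did Dcn, Fmod and Bgn, the last of which was lower than at 7 days. Endothelium markers stood in the same order (515, 218 and 47.5 FPKM in replicates 3, 1 and 2), and so did urothelium markers (932, 872 and 7.88 FPKM), whereas smooth muscle markers summed to 283, 438 and 54.4 FPKM. At 14 (as labelled) versus 7 days 8 of 8 adipocyte, 5 of 7 smooth muscle and 5 of 5 urothelium markers tested were called higher. None of the 3 lists had a member called lower, and 21.4% of all genes were called higher. Without the libraries labelled 14 days only 4, 5 and 1 of these markers passed the filter, in that order. The others were tested only with those libraries in the fit, so their calls were in part set by the filter. The part of the markers in the levels of Prelp and Lum was not tested. Fmod, at 3.51 ± 2.31 FPKM in the libraries labelled 14 days and 1.9 ± 0.363 FPKM at 7 days, did not pass (1.10 ± 0.54, adjusted p = 0.118), but did without replicate 2 (1.5, adjusted p = 0.0296).

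Collagens that these proteoglycans bind rose with decorin and biglycan. Of 10 tested collagen partner genes 10 were higher at 7 than at 1 day, beside 18% of all genes, with a median log2 fold change of 1.61 against -0.0036 over all genes tested, and 8 were with all 18 libraries in the fit. Col1a1, which encodes the alpha-1 chain of type I collagen, averaged 90.5 ± 14.5 FPKM at 7 days and 19 ± 4.46 FPKM at 1 day (log2 fold change 2.16 ± 0.19 SE, edgeR adjusted p = 1.14e-05). Col14a1, a fibril-associated collagen that binds decorin, rose by 2.34 ± 0.53 and Col11a1, a fibril-nucleating chain, by 2.42 ± 0.41 on the log2 scale. At 7 against 3 days 9 of the 10 were higher, beside 4.67% of genes, although only 1 (Col1a1, adjusted p = 0.0472) with all 18 libraries in the fit. Between 1 and 3 days none was called. Col1a2, which encodes its partner chain, is listed at 0 in all 18 libraries, so that the list lacks it. In the libraries labelled 14 days 5 of 10 were lower than at 7 days, beside 16.9% of all genes (4 to 7 with 1 library left out), with Col1a1 at 13 ± 12.3 FPKM (n = 3) and 90.5 ± 14.5 FPKM at 7 days.

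Fibroblast markers, of which 11 were tested, numbered 10 higher at 7 than at 1 day and none lower (median 1.55), beside 18% and 20.2% of all genes. Scara5, a ferritin receptor of adventitial fibroblasts, rose by 3.13 ± 0.54, Postn (periostin) by 2.43 ± 0.61 and Tagln, an actin-binding protein of contractile cells, by 2.08 ± 0.30 on the log2 scale (SE, edgeR adjusted p = 0.000564, 0.00636 and 0.000166). Dcn is itself widely used as a fibroblast marker and was kept out of that list. In the libraries labelled 14 days 0 of 11 fibroblast markers were higher and 4 lower than at 7 days, beside 21.4% and 16.9% of all genes. With 1 library left out 0 to 1 were higher and 2 to 7 lower. Leukocyte markers moved as well, with 6 of 9 tested higher at 7 than at 1 day, beside the same 18%.

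Enzymes that cut decorin and biglycan or trim procollagen were partly up. Of 10 tested genes of this list, which holds proteases and the enhancer Pcolce, 4 were higher and 1 lower at 7 than at 1 day (18% and 20.2% of all genes). Mmp2, a gelatinase that can cleave decorin, averaged 35.9 ± 10.4 FPKM at 7 days and 6.31 ± 1.73 FPKM at 1 day (log2 fold change 2.41 ± 0.25 SE, edgeR adjusted p = 2.11e-05). Pcolce, the enhancer of procollagen C-proteinase, rose by 1.65 ± 0.10 and the proteoglycanase Adamts5 by 1.18 ± 0.30. Mmp2 and Pcolce were also higher at 3 than at 1 day (1.00 ± 0.24 and 0.71 ± 0.10, adjusted p = 0.0202 and 0.00156), 2 of 10 beside 5.4% of all genes. Both of those calls were lost at nearly the same fold changes with all 18 libraries in the fit (adjusted p = 0.258 for Mmp2 and 0.217 for Pcolce). Tll1, a procollagen C-proteinase, was lower (-1.48 ± 0.55, adjusted p = 0.0435), a call lost in 16 of 27 other settings. In the libraries labelled 14 days 9 of the 10 were lower than at 7 days and 1 higher, beside 16.9% and 21.4% of all genes, and 9 and 0 with library totals in place of scaling factors.

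Growth factors and receptors that bind the family were split. Of 19 tested, 7 were higher and 5 lower at 7 than at 1 day, beside 18% and 20.2% of all genes, with a median log2 fold change of 0.41. With all 18 libraries in the fit 4 were higher and 4 lower. Tgfb2, a ligand that decorin binds, averaged 15.2 ± 5.3 FPKM at 7 days and 2.4 ± 0.918 FPKM at 1 day (log2 fold change 2.59 ± 0.34 SE, edgeR adjusted p = 9.05e-05). Ccn2, the connective tissue growth factor, rose by 1.68 ± 0.22 and Bmp4 by 1.07 ± 0.23, a call lost with all 18 libraries (adjusted p = 0.0943). Met, the receptor of hepatocyte growth factor and a decorin target, fell by 1.64 on the log2 scale (SE 0.30), with 24 ± 9.54 FPKM at 7 days and 70.4 ± 22.9 FPKM at 1 day.

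**Figure D5:**
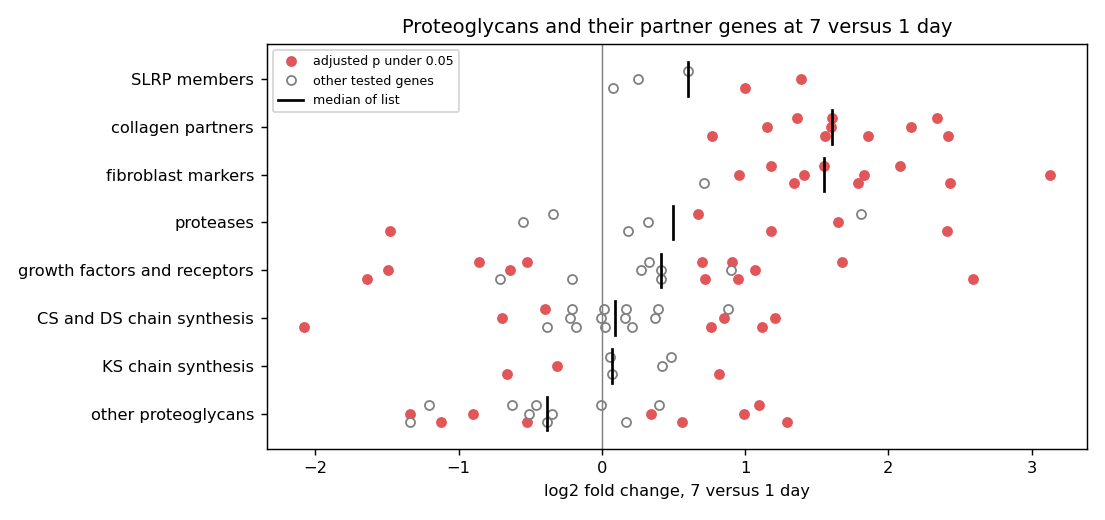
Log2 fold change at 7 versus 1 day of every tested gene of 8 lists, 1 point a gene; red points have an adjusted p under 0.05, open points do not, and the black tick is the median of the list. All 10 collagen partners and 10 of 11 fibroblast markers are red and to the right of 0, whereas the genes that build chondroitin, dermatan and keratan sulfate chains lie on both sides of 0.

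The enzymes that build the sugar chains did not move as a group. Of 20 tested genes of chondroitin and dermatan sulfate synthesis, 4 were higher and 3 lower at 7 than at 1 day, near the 18% and 20.2% of all genes, with a median log2 fold change of 0.09. With all 18 libraries in the fit 2 were higher and 2 lower. Chst14, which sulfates dermatan sulfate, averaged 9.03 ± 1.7 FPKM at 7 days and 3.61 ± 0.999 FPKM at 1 day (log2 fold change 1.21 ± 0.23 SE, edgeR adjusted p = 0.000997). Csgalnact1, which starts chondroitin chains, rose by 1.12 ± 0.29 (adjusted p = 0.00676, and 0.0502 with all 18 libraries) and Chst3, a chondroitin 6-sulfotransferase, by 0.85 ± 0.28 (adjusted p = 0.0242, lost in 5 of 27 other settings). Xylt1, one of the enzymes that place the first sugar on the core protein, was lower, at 0.946 ± 0.427 FPKM at 7 days and 3.78 ± 1.69 FPKM at 1 day (-2.08 ± 0.36, adjusted p = 0.000616). Of 7 tested keratan sulfate genes, 1 was higher, the sulfotransferase Chst2 (0.82 ± 0.19), and 2 were lower, B4galt1 (-0.66 ± 0.22) and B3gnt2 (-0.31 ± 0.11), which extend the chain, beside 18% and 20.2% of all genes. All 3 calls were lost with all 18 libraries in the fit (adjusted p = 0.283 for Chst2), and those of B4galt1 and B3gnt2 also with library totals in place of scaling factors.

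Proteoglycans outside the family showed no common direction. Of 19 tested, 5 were higher and 4 lower at 7 than at 1 day, near the 18% and 20.2% of all genes, and the median log2 fold change was -0.38. With all 18 libraries in the fit 3 were higher and 2 lower, and without replicate 5 of day 1 the median was -0.012. Gpc3, a membrane-anchored glypican, averaged 46.3 ± 7 FPKM at 7 days and 17.8 ± 1.43 FPKM at 1 day (1.29 ± 0.15 SE, edgeR adjusted p = 5.32e-05), Sdc3 (syndecan 3) rose by 0.99 ± 0.14 and Srgn, the serglycin of leukocyte granules, by 1.10 ± 0.37 (adjusted p = 0.0307, lost in 8 of 27 other settings). Cd44, the hyaluronan receptor, was lower (-1.34 ± 0.32, adjusted p = 0.005). Among 9 other genes of the family and its wider class found in the table, Omd, Kera, Epyc and Optc included, 2 were tested. At 7 against 1 day 1 was higher and 1 lower, beside 18% and 20.2% of all genes. Podnl1 had 10, 10, 17, 54 and 23 counts at 7 days, against 1, 1, 3, 0 and 2 counts at 1 day (edgeR adjusted p = 0.00107). The groups did not overlap, as for 21.7% of genes. With so few counts at 1 day Podnl1 passed the filter through later libraries, so its call was in part set by the filter. Tsku (tsukushi) averaged 11.5 ± 2.65 FPKM at 7 days and 23.1 ± 6.09 FPKM at 1 day (-1.10 ± 0.23, adjusted p = 0.00176, and 0.0654 with all 18 libraries).

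The members differed in which genes followed them most closely over the 15 libraries of days 1, 3 and 7, which share 3 durations with 5 libraries each. Dcn was most like Fkbp10, a collagen chaperone (Pearson r = 0.95 on log2 counts scaled by library, 0.77 after each duration's mean was removed), then Atp8b2 and Rcn3 (0.93 each). Bgn was most like Mmp2 (0.95, within durations 0.84), then Pknox2 (0.94) and Adamts2 (0.93), a procollagen N-proteinase. Prelp was most like Sh2d3c (0.95, within durations 0.95), Spon1 and Rbms3 (0.93 each), with replicate 5 of day 1 among the libraries farthest from its median; r for Sh2d3c was 0.97 without the 2 farthest. For Lum the highest were Msr1 (0.83), Ston1 (0.79) and Pde3a (0.76), and for Fmod Alkbh2 (0.79), Spry3 and Qprt (0.77 each), which fell to 0.59, 0.41 and 0.62 without the 2 farthest libraries. Among the members, Dcn and Bgn had r = 0.83 (within durations 0.53), Dcn and Prelp 0.77 (0.80), and Bgn and Prelp 0.64 (0.41). Dcn and Lum, neighbours on chromosome 7, had r = 0.35 (0.30). These values describe, for each member, the highest among those of the 13991 tested genes that have a symbol, and were given no test.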

How the data were processed

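Poly(A) RNA, isolated with RNAiso Plus and oligo-dT beads, was copied from random hexamers, per the labels' protocols. Per the submitters' processing notes, fastp 0.19.7 and HISAT2 2.0.4 were used. Not given in the sources used here are the genome build, the annotation, the counting tool and its strand setting. Reads from a gene and from an overlapping or antisense partner can therefore not be separated. Per the file headers, the deposited table holds a read count and an FPKM value for each gene in each library.

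Counts were tested with edgeR 4.0.16 (R 4.3.3; TMM factors, filterByExpr with a minimum count of 10 and a minimum total of 15, quasi-likelihood F test, adjusted p-values over all genes tested, called under 0.05). The fit for 3 versus 1, 7 versus 3 and 7 versus 1 day used the 15 libraries of those days (13991 genes), and that for 14 (as labelled) versus 7 days all 18 (14511 genes). Standard errors are the log2 fold change over the square root of F. Ratios to Dcn used FPKM + 0.1 and exact permutation tests (SciPy 1.17.1) over 12 tests; Ogn and Aspn, planned for, gave none.

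The members, the 18 gene lists (190 of 197 entries found) and the tests were chosen with earlier results of these data known. Named genes are, per list, up to 3 called genes with the largest change in the commoner direction at 7 versus 1 day. To these comes 1 from the opposite direction, and the genes so picked are in part named. Per member, the 3 genes with a symbol that had the highest correlation are named. Atp8b2, Pknox2 and others come from that rule. Alternatives were DESeq2 1.42.0, limma 3.58.1 on log2(FPKM + 1) or log2(FPKM + 0.1), other scalings and filters, a replicate block, other sets of libraries and each library left out. Tests were tried on simulated data. No pair of libraries of a group agreed within sampling noise (lowest chi-square per degree of freedom 6.83).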

Additional observations from a re-analysis of the deposited data

Results flagged for a closer look

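Among the 15 groups of 5 libraries examined (5 members at 1, 3 and 7 days), 2 held a library far from the other 4, and chance alone flags about 1 in 20 groups. Prelp in replicate 5 of day 1 had 11.6 FPKM, against 2.15 to 4.45 FPKM in the others. Fmod in replicate 2 of day 3 had 3.96 FPKM, from 97 counts, against 1.1 to 1.88 FPKM in the others. Urothelium markers in that library summed to 16.3 FPKM and adipocyte markers to 14 FPKM, both within the range of the other libraries of day 3.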

How the results depend on the processing

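Outside the fits that left out a library, 224 values of members kept direction and call, 8 lost and 4 gained the call, and 11 turned sign. DESeq2 called 2216 genes at 3 versus 1 day (1473 in the reported fit) and 1959 at 7 versus 3 days (1118). With all 18 libraries in the fit the counts were 329 and 152, and 0 members passed at 7 versus 3 days in place of 2. At 14 (as labelled) versus 7 days 3153 genes passed when only the libraries of those durations were fitted (5560 reported), and limma on log2(FPKM + 1) or log2(FPKM + 0.1) called 1 member in place of 3, Bgn. A pseudocount of 1 gave 6 ratios to Dcn that passed, in place of 2. The sign changes were in uncalled values near 0. Prelp at 3 versus 1 day (-0.0043) was 0.0058 with DESeq2, 0.041 with upper-quartile factors, 0.0066 with library totals, 0.0012 with no filter, 0.18 and 0.25 with limma, 0.0057 with only the libraries compared and 0.012 with all 18. Fmod at 7 versus 3 days (-0.12) was 0.027 and 0.07 with limma. The causes were not tested.

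Leaving out 1 library at a time gave 775 to 2016 genes at 3 versus 1 day, 324 to 1772 at 7 versus 3 days, 4437 to 5841 at 7 versus 1 day and 4559 to 7459 at 14 (as labelled) versus 7 days. Members called numbered 0, 1 to 2, 2 to 3 and 1 to 4 in those comparisons, and ratios to Dcn that passed 0 to 5. For these ratios 4 against 5 libraries can give no exact permutation p under 0.0159, which limits how many pass. Sign changes occurred in uncalled values alone. At 3 versus 1 day Dcn ran from -0.22 to 0.07, Fmod from -0.06 to 0.9 and Prelp from -0.19 to 0.56. At 7 versus 3 days Fmod ran from -0.29 to 0.3. At 7 versus 1 day Lum ran from -0.23 to 0.58 and Fmod from -0.017 to 0.78. At 14 (as labelled) versus 7 days Dcn ran from -1.08 to 0.07.

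With library totals in place of TMM factors, genes called higher and lower were 795 and 461 at 3 versus 1 day (755 and 718 reported), 873 and 191 at 7 versus 3 days (654 and 464), 3270 and 1946 at 7 versus 1 day (2513 and 2825) and 1332 and 4350 at 14 (as labelled) versus 7 days (3102 and 2458), where the median of all genes shifted to -0.24 from 0.07. The direction of each called member held under these totals. Whether replicate numbers pair the libraries was left undecided. Correlations of deviations between same-numbered libraries were -0.22 to 0.17, with 7 of 15 over 0.1, against -0.40 to 0.37 between the others. The best match of a library in another group had the same number in 9 of 30 cases. With the replicate block 1178, 844, 5042 and 4486 genes were called, the members called were 0, 2, 2 and 2, Lum at 14 (as labelled) versus 7 days was 2.25 (adjusted p = 0.187 in edgeR) and Prelp at 3 versus 1 day 0.19.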
